A study of Mus musculus with 6 samples.

Results

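Imprinted genes were followed here through a list of 40 gene symbols matched by name to the deposited count table, in which 36 of them were among the 16455 genes listed. After a filter on low counts 34 of the 36 were tested, of 13630 genes tested in all. They were grouped by chromosomal cluster and by the parental allele that is usually expressed in mouse. RNA-seq was carried out on primary osteoblasts of C57/B6 mice 3 days old, cultured for 3 days, with 3 libraries from wild-type (WT) mice and 3 from TCKO mice. In TCKO mice, Prx1-Cre recombined floxed alleles of Tet1, Tet2 and Tet3, and Prx1-Cre acts in the mesenchyme of the limbs and part of the skull and not in every cell of a calvarial culture. Whether the WT mice carried floxed alleles is not stated. The labels name no separate animal or culture for a library, so the p-values reflect the spread among these libraries alone, and that spread may be technical.

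An imprinted gene is transcribed mainly from the copy inherited from 1 parent. The difference between the copies is set in the germ line by DNA methylation of control regions, and in the embryo it is kept by DNMT1 with UHRF1 and by ZFP57, a zinc finger protein that binds methylated TGCCGC. TET enzymes oxidise 5-methylcytosine and take part in erasing imprints in germ cells. Many imprinted genes act on prenatal growth, and several are abundant in mesenchyme and decline after birth. Counts per gene do not separate the parental copies, so a level here is the sum over both, and methylation was not analysed here.

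The sequences before the starts of Zdbf2, Gpr1, Plagl1 and Mest, members with large differences between the genotypes, are shown because imprints are carried as methylation of CpG near such starts. Each is the 250 bases before a RefSeq start on GRCm38, read 5′ to 3′ on the strand of the gene, with each CpG in capitals. RefSeq gives Zdbf2 a start inside the extent of Gpr1, kilobases from the starts of Gpr1, and another close to the body of Zdbf2. These lie on the + strand at chr1:63200108-63200357 and chr1:63273019-63273268. The window of Gpr1 is at chr1:63214282-63214531 on the - strand. Those of Plagl1 and Mest are at chr10:13090582-13090831 and chr6:30737800-30738049, both on the + strand. The Mest start was picked because its window holds TGCCGC, and the window of another Mest start held 8 CpG and 0 copies. Windows of Dio3, Nnat and Zim1, which also had large differences, are not shown.
Zdbf2 upstream start: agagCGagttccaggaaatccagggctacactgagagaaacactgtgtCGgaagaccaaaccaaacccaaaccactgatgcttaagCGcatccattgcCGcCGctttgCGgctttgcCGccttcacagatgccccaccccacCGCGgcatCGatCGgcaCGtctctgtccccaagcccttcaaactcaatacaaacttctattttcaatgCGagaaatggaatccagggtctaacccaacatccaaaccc
Zdbf2 near start: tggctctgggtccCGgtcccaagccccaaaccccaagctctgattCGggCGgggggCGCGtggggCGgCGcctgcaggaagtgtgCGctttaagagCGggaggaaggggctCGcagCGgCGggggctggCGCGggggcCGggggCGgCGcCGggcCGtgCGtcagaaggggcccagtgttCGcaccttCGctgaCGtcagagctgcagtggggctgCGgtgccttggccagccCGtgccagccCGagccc
Gpr1: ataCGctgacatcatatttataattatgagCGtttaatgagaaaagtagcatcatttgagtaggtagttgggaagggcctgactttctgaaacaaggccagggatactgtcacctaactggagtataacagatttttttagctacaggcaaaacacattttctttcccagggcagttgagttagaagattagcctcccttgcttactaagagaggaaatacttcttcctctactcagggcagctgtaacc
Plagl1: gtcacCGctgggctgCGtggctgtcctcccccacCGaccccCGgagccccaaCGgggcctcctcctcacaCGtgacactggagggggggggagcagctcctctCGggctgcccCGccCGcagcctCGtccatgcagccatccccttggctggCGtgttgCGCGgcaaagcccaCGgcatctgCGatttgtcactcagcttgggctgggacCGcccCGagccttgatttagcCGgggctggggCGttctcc
Mest: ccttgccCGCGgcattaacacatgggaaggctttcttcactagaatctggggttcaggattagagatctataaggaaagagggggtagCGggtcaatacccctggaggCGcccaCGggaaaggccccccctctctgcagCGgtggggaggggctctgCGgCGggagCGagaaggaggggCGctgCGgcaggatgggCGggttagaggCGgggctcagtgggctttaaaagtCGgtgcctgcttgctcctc
The upstream Zdbf2 window held 13 CpG and 3 copies of TGCCGC counted on both strands (reverse complement GCGGCA), whereas the near window held 26 CpG and 0 copies. The Gpr1 window held 2 CpG and 0 copies, the Plagl1 window 19 CpG and 1 copy, and the Mest window 14 CpG and 2 copies. Among all 32851 RefSeq promoter windows of 300 bases, 11.6% held TGCCGC and the median was 7 CpG. The 34 members with an entry had 50 such windows, of which 12 (24.0%) held the motif, in Commd1, Copg2, Grb10, Meg3, Mest, Nap1l5, Nnat, Plagl1, Snrpn, Zdbf2 and Zim1. A match is only a run of letters in a window. Cdkn1c, H19, Impact, Peg10, Rtl1 and Sgce had no entry.

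In the fit across all genes (edgeR quasi-likelihood test, Benjamini-Hochberg adjustment), 13 of the 34 members passed an adjusted p of 0.05, or 38.2%, where 18.3% of all genes tested passed. In TCKO 4 members were higher (11.8% of members, 9.44% of all genes) and 9 were lower (26.5% of members, 8.9% of all genes). At more than 2-fold the counts were 3 higher (3.01% of all genes) and 5 lower (3.06% of all genes), together 23.5% of the members, where 6.07% of all genes passed. The median log2 fold change over the members was -0.19 and over all genes -0.00, and single members ran from -3.67 (Dio3) to 3.19 (Gpr1). The 3 WT and 3 TCKO values did not overlap for 23 members (67.6%), where 38.2% of all genes did not overlap. The members were chosen with earlier results of these data known, so these shares are no test of imprinted genes as a class. In bulk RNA, fewer cells of a type and less RNA per cell cannot be told apart.

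Members that passed came from 10 of the 18 clusters and from both allele classes. Of the 19 tested members usually expressed from the paternal allele 3 were higher (9.44% of all genes) and 5 lower (8.9% of all genes). Their median log2 fold change was 0.01. Of the 13 usually expressed from the maternal allele 1 was higher and 4 were lower, with a median of -0.23. Whether a member, Cd81 among the lower ones included, was imprinted in these cells was not measured. No difference between the allele classes was tested. Of the clusters with more than 1 member tested, Zdbf2-Gpr1 and Mest-Copg2 were those in which every tested member passed, both upward in the former and both downward in the latter.

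**Figure D1:**
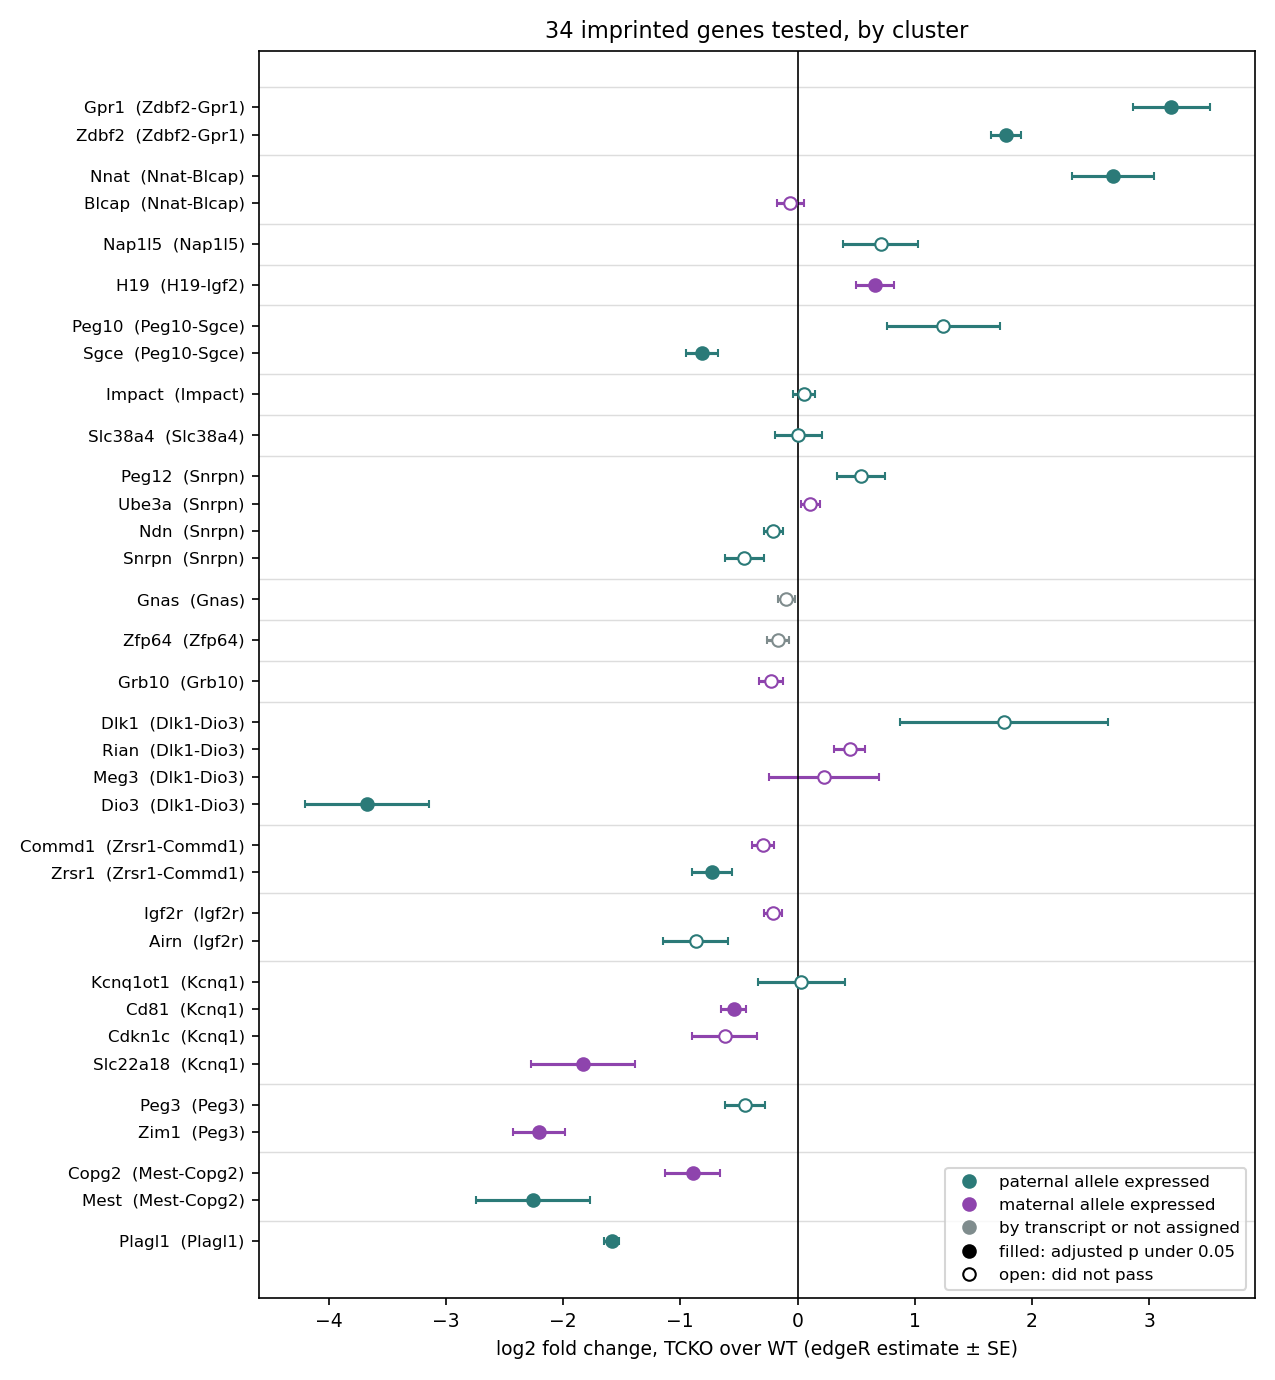
Log2 fold change of TCKO over WT (x axis, edgeR estimate ± SE) for the 34 members tested, grouped by cluster; filled points passed an adjusted p of 0.05, and colour gives the allele usually expressed. The estimates run from -3.67 for Dio3 to 3.19 for Gpr1, with 4 filled points right of 0 and 9 left of it.

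The cells were checked against marker genes. For the counts of markers below, 9.44% of all genes tested were higher and 8.9% were lower. Col1a1, the main bone collagen, was at 17129 to 18674 CPM (reads of a gene per 1000000 counted reads after scaling) in WT and at 8947 to 12834 in TCKO, and Runx2, the osteoblast master regulator, at 66.6 to 71.9 and 48.2 to 56.5. Both were lower in TCKO (-0.64, edgeR adjusted p = 0.0232, and -0.39, edgeR adjusted p = 0.0153). Osteoblast markers summed to 41576 to 44746 CPM in WT and 21743 to 38076 in TCKO (1 higher and 6 lower of 10 tested), with the matrix gene Omd (-3.33) and the phosphatase gene Alpl (-3.21) lower and Spp1, which codes for osteopontin, higher (2.69). The late markers Bglap2 and Phex were low, with highest values of 1.04 and 1.47 CPM in any library. Marker sums of other cell types were compared as well, and those of macrophages and of skeletal muscle overlapped between the genotypes. Chondrocyte markers summed to 8443 to 10209 CPM in WT and 1078 to 1483 in TCKO (13 of 14 tested lower, 1 higher, none at 0), with Col2a1 at 5835 to 7833 CPM in WT and 608 to 851 in TCKO. Macrophage markers summed to 468 to 877 CPM in WT and 182 to 630 in TCKO (0 higher and 2 lower of 14), and adipocyte markers to 54.6 to 75.9 and 29.2 to 41.5 (0 higher and 2 lower of 4). Endothelial markers summed to 7.83 to 8.87 CPM in WT and 40.7 to 111 in TCKO through Kdr, while Pecam1 and Cdh5 were below 1 CPM in every library. Skeletal muscle markers summed to 10.7 to 30.7 CPM in WT and 25.8 to 69.2 in TCKO through Acta1, with Myod1 below 1 CPM throughout. In replicate 3 the muscle sum was lower in TCKO (25.8) than in WT (30.7). Neuron and glia markers summed to 55.2 to 73.1 CPM in WT and 73.6 to 87.4 in TCKO. The part of these differences in the values of the imprinted genes was not tested. Libraries held 8119261 to 10657824 counted reads. Replicates 1 and 2 of each genotype were close to each other (chi-square per degree of freedom 1.75 in WT and 2.53 in TCKO), while replicate 3 stood apart from both (15.8 to 23.0).

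Both members of the Zdbf2-Gpr1 cluster on chromosome 1 were higher in TCKO. Gpr1, a receptor for the adipokine chemerin, was at 0.576, 0.570 and 0.479 CPM in WT replicates 1, 2 and 3 and at 4.21, 4.42 and 6.53 CPM in the TCKO replicates. These levels rest on 5, 6 and 4 reads in WT and on 38, 36 and 59 reads in TCKO, and the groups were far apart. On the log2 scale the fold change was 3.19 ± 0.33 (SE, n = 3 libraries per genotype, edgeR adjusted p = 0.00068). Zdbf2, which codes for a zinc finger protein with a known part in feeding and growth of young mice, was at 16.0, 13.2 and 13.9 CPM in WT and at 45.4, 45.5 and 56.9 CPM in TCKO. Every TCKO library was more than 2-fold above every WT library, and the log2 fold change was 1.78 ± 0.13 (edgeR adjusted p = 0.000146). Both genes kept their calls in all 14 alternative fits.

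None of the 6 genes tested within 500 kb of these members (by lower gene boundary) that are on neither list of imprinted genes passed, and their median log2 fold change was 0.07. Adam23, which is on the list of further imprinted genes and lies in that window, did not pass either (-0.20 ± 0.14, edgeR adjusted p = 0.377). Neighbours of other clusters were counted in the same way, without listed imprinted genes. Transcripts of the imprinted loci that are on neither list stayed in the count. Among them are Dio3os (lower), Mir675 in an exon of H19 and Mir1906-1 in an exon of Meg3. Over all clusters, 10 of 103 such neighbours were higher (9.44% of all genes) and 11 were lower (8.9% of all genes). With so few genes around 1 cluster, a count of 0 does not set it apart. In GENCODE, Gpr1 spans chr1:63182691-63214543 on the - strand and Zdbf2 chr1:63273265-63314576 on the + strand, without overlap. With the upstream start, however, the RefSeq extents of the genes share 22921 bases on opposite strands. These extents include introns, and exon bases shared by Gpr1 and an upstream-started Zdbf2 transcript were not counted. The sources do not state how the counting treated strand, so reads in any such bases could not be assigned.

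Nnat, a paternally expressed proteolipid of the endoplasmic reticulum that lies in an intron of Blcap, was at 0.921, 0.949 and 0.719 CPM in WT and at 4.87, 4.18 and 7.97 CPM in TCKO. The WT values rest on 8, 10 and 6 reads. All TCKO values were above all WT values (log2 fold change 2.69 ± 0.35, edgeR adjusted p = 0.00176), with a call that held in all 14 alternatives. Its host gene Blcap, maternally expressed in brain, was at 81.7, 76.1 and 81.6 CPM in WT and 69.8, 68.3 and 90.9 CPM in TCKO. The Blcap values overlapped, and the log2 fold change was -0.06 ± 0.12 (edgeR adjusted p = 0.744). Nnat remained a low-level transcript in TCKO: per kilobase of exon its mean was 3.10 CPM, rank 8965 of 13323 genes, against 0.472 CPM and rank 12579 in WT. Gpr1 likewise moved from rank 13096 to 10145 and Zdbf2 from 11390 to 8217.

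**Figure D2:**
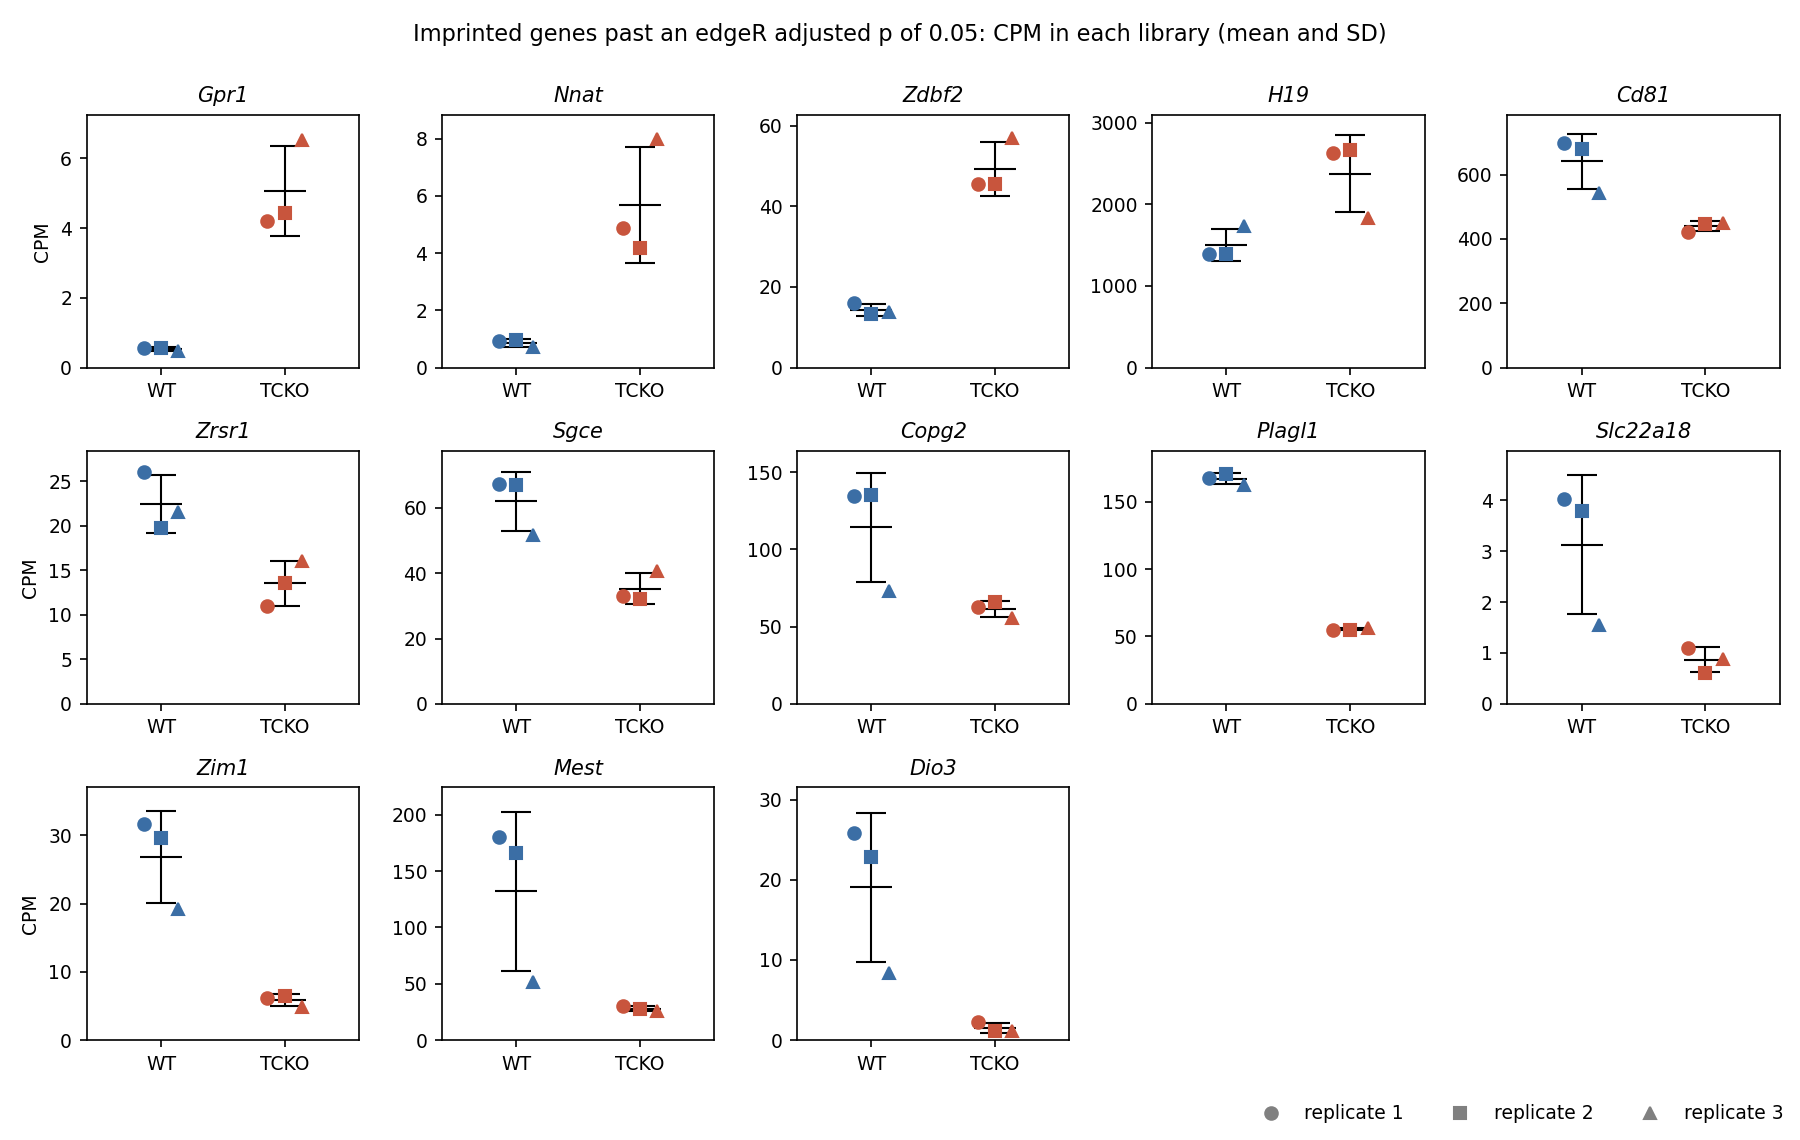
CPM (y axis, from 0) of the 13 members that passed, in each WT (blue) and TCKO (red) library; marker shape gives the replicate number, and the bar and whiskers give mean and SD of 3 libraries. Gpr1, Nnat and Zdbf2 are separated by wide gaps, while H19 of TCKO replicate 3 (1837 CPM) lies close to WT replicate 3 (1729 CPM).

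H19, the maternally expressed long non-coding RNA at chr7:142575529-142578143 (- strand), was the most abundant member per kilobase in both genotypes (611 CPM per kb and rank 46 in WT, 966 and rank 21 in TCKO). It was at 1389.7, 1393 and 1729 CPM in WT and at 2624, 2667 and 1837 CPM in TCKO. The groups did not overlap, but TCKO replicate 3 was only slightly above WT replicate 3. The log2 fold change was 0.66 ± 0.16 (edgeR adjusted p = 0.0271), with a log2 difference of 0.93 within replicates 1 and 2 and of 0.09 within replicate 3. The call was lost without WT replicate 1 (0.112) or 2 (0.115), without TCKO replicate 1 (0.0988) or 2 (0.0959), and with the replicate number as a block (0.0595).

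Igf2, the growth factor that shares enhancers with H19 and is expressed from the other parental copy, was at 2772, 2818 and 3142 CPM in WT and at 2873, 2814 and 3488 CPM in TCKO. Its values overlapped (log2 fold change 0.07 ± 0.11, edgeR adjusted p = 0.703). The ratio of H19 to Igf2 reads was 0.501, 0.494 and 0.550 in WT and 0.914, 0.948 and 0.527 in TCKO. TCKO replicates 1 and 2 thus stood above all other libraries, and TCKO replicate 3 lay inside the WT range.

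H19 carries the hairpin of miR-675 in an exon, and the hairpin has its own entry in the table. The mature sequences in RefSeq, at chr7:142577112-142577133 and chr7:142577078-142577099 (- strand), are shown with the seed, bases 2 to 8, in capitals because the seeds of the 2 arms differ.
mmu-miR-675-5p: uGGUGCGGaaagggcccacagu
mmu-miR-675-3p: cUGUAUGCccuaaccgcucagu
Mir675 was at 40.1, 39.1 and 51.6 CPM in WT and at 72.0, 72.5 and 48.1 CPM in TCKO, with TCKO replicate 3 inside the WT range (log2 fold change 0.56 ± 0.18, edgeR adjusted p = 0.0739). Its reads were between 0.0262 and 0.0299 of those of H19 in every library. These are reads of a long-RNA library over the hairpin and no measure of the mature miRNA.

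In the Dlk1-Dio3 cluster on chromosome 12, Dio3 fell in TCKO and the other 3 members tested did not pass. Dio3, the deiodinase that inactivates thyroid hormone, was at 25.9, 22.9 and 8.39 CPM in WT and at 2.21, 1.11 and 1.11 CPM in TCKO, the latter from 20, 9 and 10 reads. Every WT library was above every TCKO library, with WT replicate 3 the lowest of the WT group. The log2 fold change was -3.67 ± 0.53 (edgeR adjusted p = 0.00508), the largest fall among the members, and Dio3 went from rank 5016 to rank 12050 of 13323 genes per kilobase. The call held without each library, and with replicates 1 and 2 of each genotype summed into 1 library it was lost (0.0696).

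The neighbouring antisense gene Dio3os, which is not among the 40 members, fell too, with 18, 36 and 14 reads in WT and 3, 1 and 2 reads in TCKO (log2 fold change -3.33 ± 0.51, edgeR adjusted p = 0.00396). The annotated extents of the pair lie 1162 bases apart in RefSeq, so the genes share no annotated exon.

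Dlk1, a Notch-family ligand that restrains adipocyte differentiation, was at 13.7, 10.1 and 42.3 CPM in WT and at 34.3, 30.8 and 156 CPM in TCKO. Replicate 3 was the highest library in both genotypes, and WT replicate 3 lay above TCKO replicates 1 and 2. A log2 difference of 1.76 ± 0.89 between the genotypes missed the threshold (edgeR adjusted p = 0.237), and it moved to 0.59 without TCKO replicate 3 and to 2.64 without WT replicate 3. With the replicate number as a block it passed (edgeR adjusted p = 0.000136), and with replicates 1 and 2 summed it did not (edgeR adjusted p = 0.410). The block counts replicates 1 and 2 as separate pairs, although they were close to each other. The log2 difference was 1.45 within replicates 1 and 2 and 1.88 within replicate 3. Rian, a maternally expressed host of small nucleolar RNAs, was at 198, 205 and 241 CPM in WT and at 256, 271 and 351 CPM in TCKO. Its groups did not overlap (log2 fold change 0.45 ± 0.13, edgeR adjusted p = 0.0527, with the block 0.00377, with replicates 1 and 2 summed 0.244). Meg3, the other long maternal RNA, overlapped between the groups at 129, 111 and 236 CPM in WT and 128, 124 and 302 CPM in TCKO (log2 fold change 0.22 ± 0.47, edgeR adjusted p = 0.784). The sign of Meg3 turned without TCKO replicate 3 (-0.33), and without WT replicate 3 its value was 0.63. Mirg, downstream of Rian, did not pass either (0.46 ± 0.43, edgeR adjusted p = 0.505). Rtl1 was not listed.

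**Figure D3:**
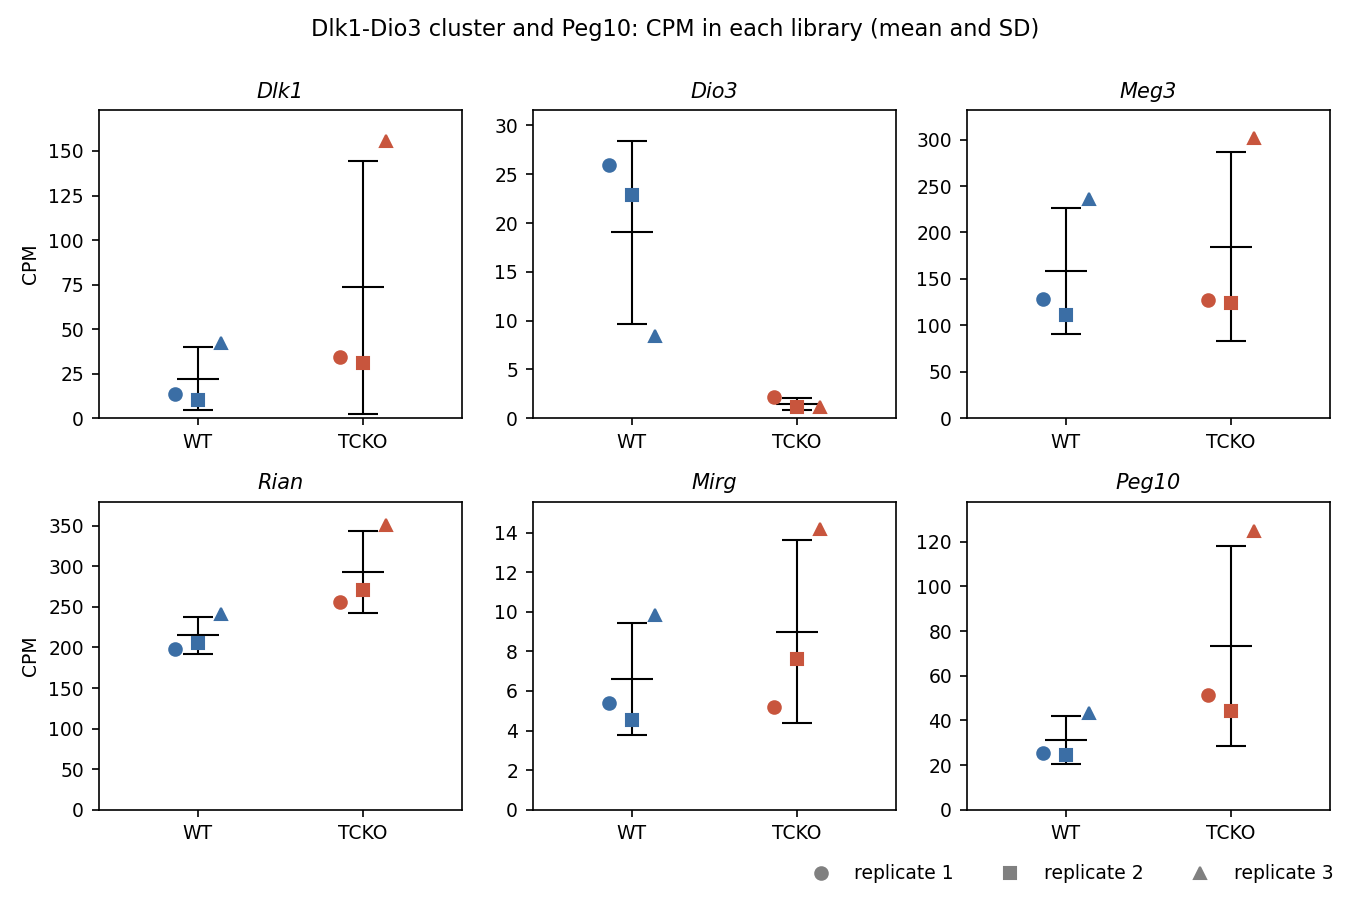
CPM (y axis, from 0) of members and Mirg of the Dlk1-Dio3 cluster and of Peg10 in each WT (blue) and TCKO (red) library, with replicate numbers as marker shapes and mean and SD of 3 libraries. Replicate 3 is the highest library of its genotype for Dlk1, Meg3, Rian, Mirg and Peg10, and for Dio3 the WT group alone is spread, from 8.39 to 25.9 CPM.

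Plagl1, a paternally expressed zinc finger transcription factor that restrains the cell cycle, gave the smallest p-value of the members. It was at 168, 171 and 162 CPM in WT and at 55.1, 55.1 and 56.6 CPM in TCKO. Within each genotype the libraries were within a few CPM of each other, replicate 3 included. The log2 fold change was -1.59 ± 0.064 (edgeR adjusted p = 1.11e-05), a 3.00-fold higher level in WT, and between -1.61 and -1.57 in the 14 alternatives, all of which it passed. Among the 7 other genes tested within 500 kb, Phactr2 was also lower (-1.19 ± 0.13, edgeR adjusted p = 0.000906). Fuca2 was lower too (-0.57 ± 0.16, edgeR adjusted p = 0.0451) and Stx11 was higher (0.49 ± 0.14, edgeR adjusted p = 0.0429). The call of Fuca2 held only when WT replicate 3 was left out (otherwise up to 0.170), and that of Stx11 was lost whichever of the 6 libraries was left out (0.0637 to 0.159).

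Zim1, a maternally expressed zinc finger gene beside Peg3, was at 31.7, 29.6 and 19.2 CPM in WT and at 6.09, 6.51 and 4.87 CPM in TCKO. The groups were clearly separate (log2 fold change -2.21 ± 0.22, edgeR adjusted p = 0.000631), and the call held in all 14 alternatives. Peg3, its paternally expressed neighbour and also a zinc finger gene, was at 184, 184 and 124 CPM in WT and at 137, 118 and 106 CPM in TCKO. WT replicate 3 lay below TCKO replicate 1, so the groups overlapped. The difference of -0.45 ± 0.17 on the log2 scale did not pass (edgeR adjusted p = 0.113, with the block 0.0111, without WT replicate 3 0.00573, with replicates 1 and 2 summed 0.417). Usp29 of the same cluster had 6, 4 and 4 reads in WT and 9, 1 and 4 in TCKO and was not tested. None of the 8 other genes tested within 500 kb passed, where 18.3% of all genes tested passed.

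Mest and Copg2 on chromosome 6 were both lower in TCKO. Mest, a hydrolase-fold protein of the endoplasmic reticulum that is abundant in embryonic mesoderm and declines after birth, was at 180.0, 166 and 51.2 CPM in WT and at 30.0, 27.4 and 25.7 CPM in TCKO. TCKO libraries lay close together, and WT replicate 3 stood nearer to them than to the other WT libraries. Between the genotypes Mest differed by -2.26 ± 0.49 on the log2 scale (edgeR adjusted p = 0.0299). This difference was -2.59 within replicates 1 and 2 and -0.99 within replicate 3. The call was lost without WT replicate 1 (0.0799) or 2 (0.0794) and without TCKO replicate 1 (0.0867), 2 (0.0907) or 3 (0.112). It was lost as well with the replicate block (0.0548) and in limma-voom (0.0662).

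Copg2, a coatomer subunit of Golgi vesicles, was at 134, 135 and 73.3 CPM in WT and at 62.6, 66.1 and 55.9 CPM in TCKO. The groups did not overlap, and WT replicate 3 was again the lowest of its group. The log2 fold change was -0.90 ± 0.24 (edgeR adjusted p = 0.0443), and the call held when WT replicate 3 was left out and was lost without any other library (0.103 to 0.134). It was lost too with no filter on low counts (0.0561) and in limma-voom (0.0640). The genes run toward each other and share 912 exon bases on opposite strands, or 23.1% of the exons of Mest and 17.8% of those of Copg2, so part of their reads cannot be told apart. The ratio of Copg2 to Mest reads was 0.747, 0.815 and 1.43 in WT and 2.08, 2.41 and 2.18 in TCKO, so it was higher in every TCKO library than in any WT library. Upstream of Mest, Cpa4 (-1.69 ± 0.36, edgeR adjusted p = 0.0144), a carboxypeptidase gene, and Cep41 (-0.59 ± 0.14, edgeR adjusted p = 0.0209) were lower in TCKO, and the other 5 of 7 genes tested within 500 kb did not pass. The call of Cpa4 was lost without WT replicate 1 or 2 or TCKO replicate 1 (up to 0.0696), and that of Cep41 also without TCKO replicate 2 (up to 0.0927).

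**Figure D4:**
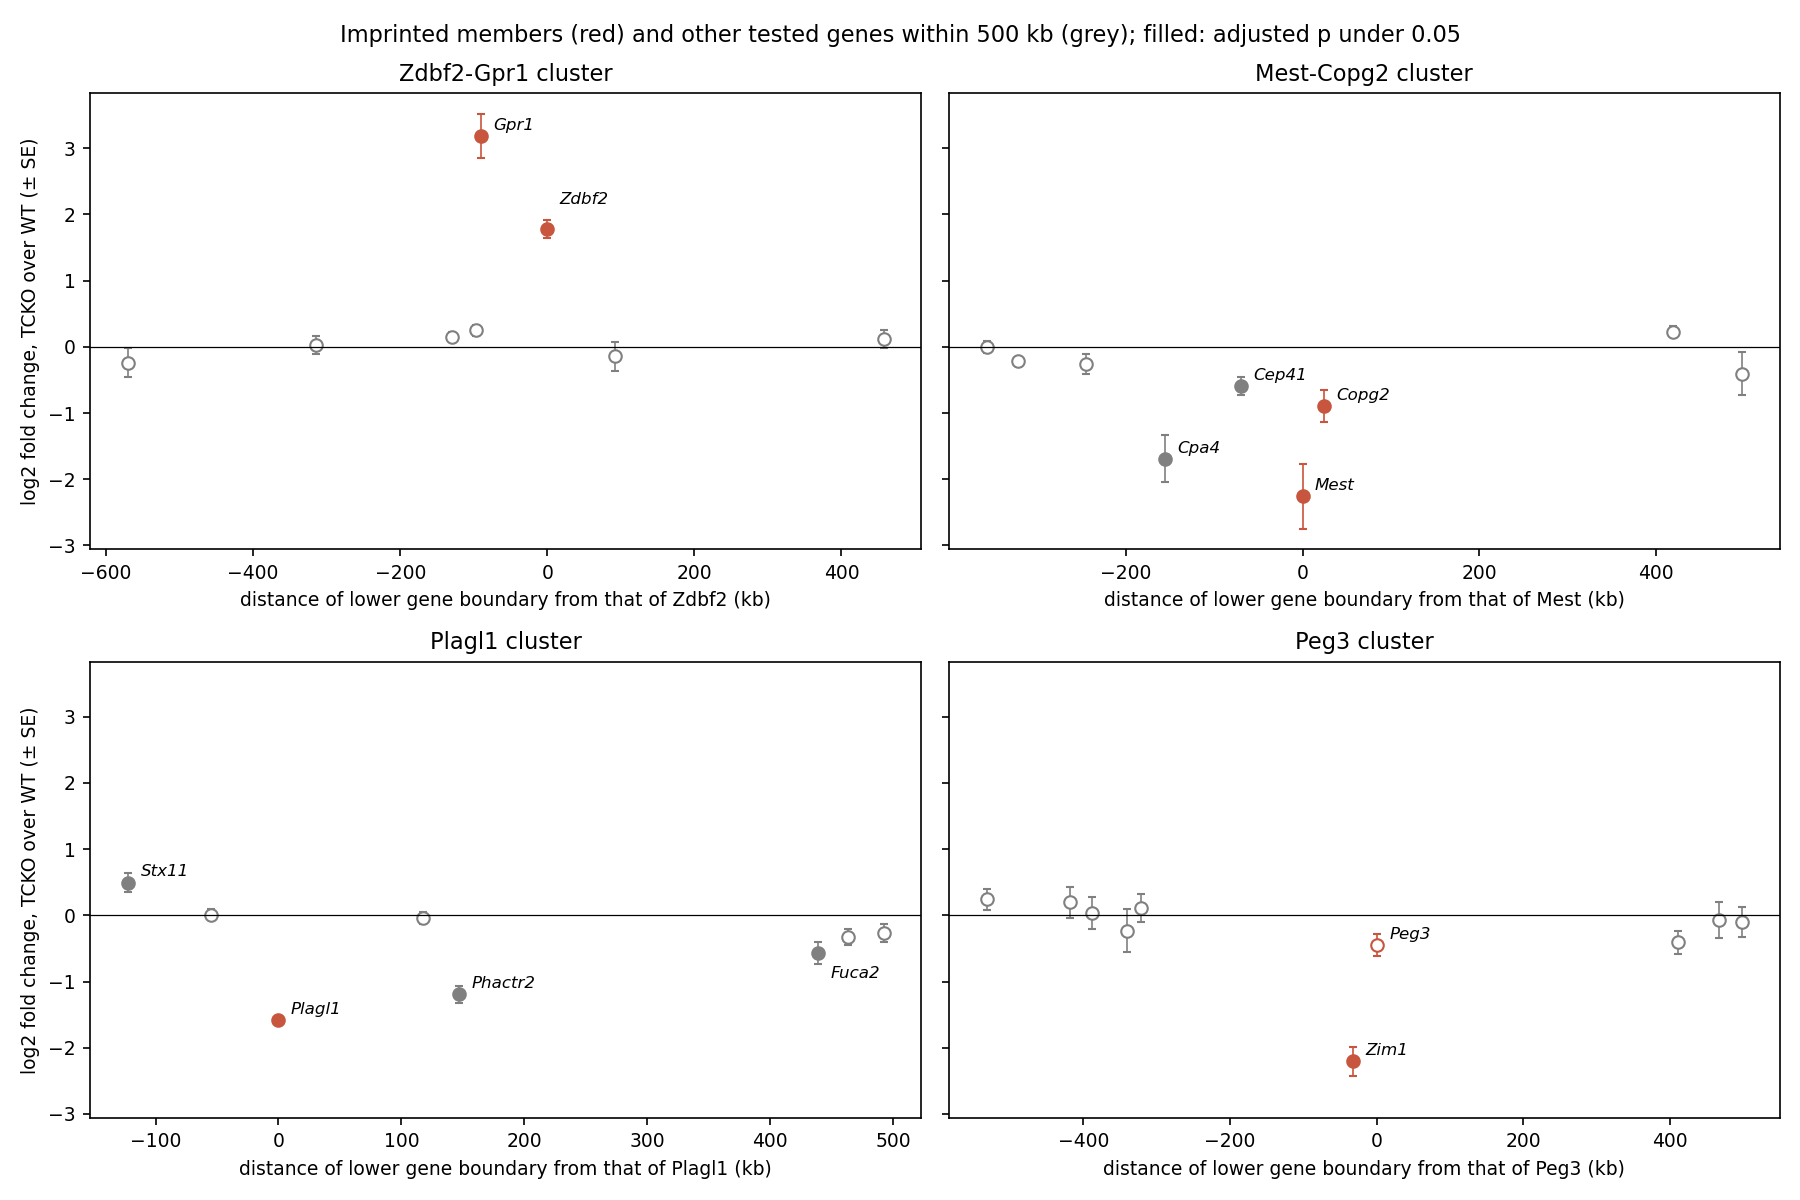
Log2 fold change of TCKO over WT (y axis, ± SE) against the distance of the lower gene boundary (the smaller coordinate, on either strand) from that of Zdbf2, Mest, Plagl1 or Peg3 (x axis, kb); red points are members, grey points are tested genes within 500 kb of a member that are on no list of imprinted genes, and filled points passed an adjusted p of 0.05. No grey point passed around Zdbf2 or Peg3, 2 passed around Mest (Cpa4 and Cep41, both lower) and 3 around Plagl1. Of all genes tested 18.3% passed.

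The start sites of Sgce and Peg10 lie next to each other and the genes run apart. Sgce, a sarcoglycan, was at 67.5, 67.0 and 51.6 CPM in WT and at 33.0, 32.2 and 40.6 CPM in TCKO. The groups did not overlap (log2 fold change -0.81 ± 0.14, edgeR adjusted p = 0.00547), and the call was kept without each library but lost with replicates 1 and 2 summed (0.125). Peg10, a retrotransposon-derived gene from the same paternal copy, was at 25.3, 24.7 and 43.5 CPM in WT and at 51.3, 44.1 and 125 CPM in TCKO. TCKO replicate 2 was barely above WT replicate 3. The difference of 1.24 ± 0.48 on the log2 scale did not pass (edgeR adjusted p = 0.139, with the block 0.00221, with replicates 1 and 2 summed 0.292). Without TCKO replicate 3 this difference was 0.62, and without WT replicate 3 it was 1.56. Sgce and Peg10 had differences of opposite sign in each replicate set. Asb4 had 1, 8 and 3 reads in WT and 6, 8 and 6 in TCKO and was not tested.

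In the Kcnq1 cluster on chromosome 7, Cd81 and Slc22a18 were lower in TCKO, and the other members tested did not pass. Cd81, a tetraspanin, was at 699, 681 and 543 CPM in WT and at 422, 447 and 449 CPM in TCKO, without overlap (log2 fold change -0.54 ± 0.10, edgeR adjusted p = 0.0101). The call was lost without WT replicate 2 (0.0528) or TCKO replicate 1 (0.0532). Slc22a18, an organic cation transporter-like gene, was at 4.03, 3.80 and 1.56 CPM in WT and at 1.11, 0.614 and 0.886 CPM in TCKO, the latter from 10, 5 and 8 reads. WT replicate 3 was close to the TCKO group, and the log2 fold change was -1.83 ± 0.44 (edgeR adjusted p = 0.0247), a call that leaving out WT replicate 1 (0.0985) or 2 (0.104), or TCKO replicate 1 (0.0624) or 2 (0.0926), ended. Cdkn1c, the cyclin-dependent kinase inhibitor p57, averaged 7.32 CPM in WT and 4.76 in TCKO and overlapped (-0.62 ± 0.28, edgeR adjusted p = 0.163, without WT replicate 3 0.0191). Kcnq1ot1, the paternally expressed antisense RNA that silences the cluster in cis, averaged 2.29 and 2.32 CPM (0.03 ± 0.37, edgeR adjusted p = 0.961). Phlda2 and Ascl2 were not listed.

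Zrsr1, an intronless gene within Commd1, was at 26.0, 19.7 and 21.6 CPM in WT and at 11.0, 13.5 and 16.1 CPM in TCKO. The highest TCKO library lay below the lowest WT library (log2 fold change -0.73 ± 0.17, edgeR adjusted p = 0.0215), and the call was lost without WT replicate 1 (0.0888) or TCKO replicate 1 (0.0739) or 2 (0.0734). Commd1, a protein of endosomal trafficking, was at 39.1, 39.8 and 37.4 CPM in WT and at 29.8, 35.0 and 30.0 CPM in TCKO. Its groups did not overlap either, and the log2 fold change was -0.30 ± 0.094 (edgeR adjusted p = 0.0633, with the block 0.0409, with replicates 1 and 2 summed 0.270). The pair shares 412 exon bases on opposite strands, whose reads cannot be told apart.

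The insulin-like growth factor regulators did not pass. Grb10, an adaptor that dampens insulin and IGF receptors, was at 1116, 1104 and 876 CPM in WT and at 882, 897 and 868 CPM in TCKO. WT replicate 3 was inside the TCKO range (log2 fold change -0.23 ± 0.10, edgeR adjusted p = 0.173), and without it the difference passed (0.0100). Igf2r, the receptor that takes IGF2 to the lysosome, was at 458, 442 and 407 CPM in WT and at 389, 376 and 365 CPM in TCKO. Its groups did not overlap (-0.21 ± 0.074, edgeR adjusted p = 0.0866, without WT replicate 3 0.0248). Airn, the antisense RNA that silences Igf2r on the paternal copy, averaged 2.44 CPM in WT and 1.34 in TCKO, also without overlap (-0.87 ± 0.28, edgeR adjusted p = 0.0645).

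The Snrpn cluster on chromosome 7 held no member that passed. Ndn, the MAGE-family protein necdin, was at 137, 142 and 129.8 CPM in WT and at 112, 112 and 129.8 CPM in TCKO, with replicate 3 of the genotypes at nearly the same level (-0.21 ± 0.081, edgeR adjusted p = 0.116). Snrpn, a splicing-complex protein, averaged 12.5 CPM in WT and 9.18 in TCKO (-0.46 ± 0.17, edgeR adjusted p = 0.0952). Its reads were counted for Snurf as well, since the entries were equal in 5 of 6 libraries and differed by 1 read in the other. Peg12 averaged 7.69 and 11.1 CPM (0.54 ± 0.21, edgeR adjusted p = 0.110) and the ubiquitin ligase Ube3a 78.5 and 84.7 CPM (0.11 ± 0.079, edgeR adjusted p = 0.382). Without WT replicate 3 Snrpn passed (0.0467), and without TCKO replicate 3 Ndn did (0.0246). Magel2 was not listed.

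The remaining members did not pass either. Gnas, which codes for the stimulatory G protein alpha subunit and several alternative transcripts of differing parental origin, was at 1331, 1271 and 1258 CPM in WT and at 1179, 1206 and 1227 CPM in TCKO. These values did not overlap, yet the log2 fold change was only -0.10 ± 0.074 (edgeR adjusted p = 0.409), and the table has no entry per transcript. Impact, an inhibitor of GCN2 signalling, was at 121, 119 and 109 CPM in WT and at 112, 115 and 136 CPM in TCKO (0.06 ± 0.092, edgeR adjusted p = 0.714). Slc38a4, an amino acid transporter, was at 36.3, 42.9 and 63.6 CPM in WT and at 44.6, 45.8 and 52.6 CPM in TCKO. Its values overlapped fully (0.01 ± 0.20, edgeR adjusted p = 0.989). Nap1l5 was at 1.15, 1.90 and 1.80 CPM in WT and at 2.21, 2.34 and 3.43 CPM in TCKO, without overlap (0.71 ± 0.32, edgeR adjusted p = 0.164). These levels rest on 10, 20 and 15 reads in WT and 20, 19 and 31 in TCKO. Of 5 other genes tested within 500 kb 2 were higher (9.44% of all genes) and 1 was lower (8.9% of all genes). Herc3 was 1 of those higher (0.52 ± 0.096, edgeR adjusted p = 0.00857), and its part in the Nap1l5 reads was not tested. Zfp64 was at 28.2, 25.1 and 26.6 CPM in WT and at 23.0, 23.1 and 24.9 CPM in TCKO, again without overlap (-0.17 ± 0.096, edgeR adjusted p = 0.267).

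The replicate sets differed in the size of the differences. All 13 members that passed had the same sign within replicates 1 and 2 and within replicate 3, and 10 of them had the larger difference within replicates 1 and 2, among them all 9 lower members and H19. Gpr1, Nnat and Zdbf2 had the larger difference within replicate 3. Replicate 3 had the highest level of both genotypes for Dlk1, Meg3, Rian, Kcnq1ot1, Peg10 and Slc38a4. It had the lowest for Grb10, Igf2r, Cdkn1c, Copg2, Mest, Peg3, Zim1 and Ube3a. With replicates 1 and 2 of each genotype summed, 5 members passed, namely Gpr1, Nnat, Zdbf2, Plagl1 and Zim1. What separates replicate 3 from the others is not given in the labels, and its part in these values was not tested.

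**Figure D5:**
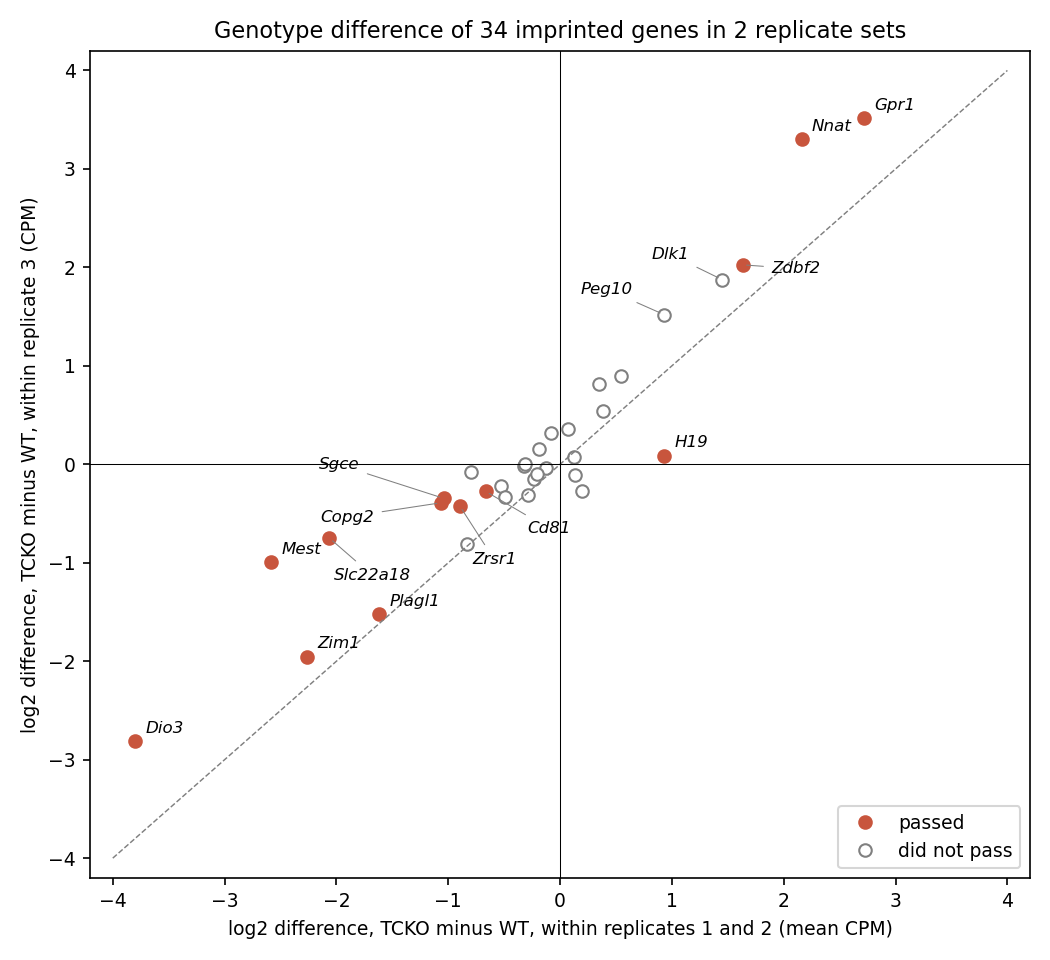
Log2 difference of TCKO minus WT within replicate 3 (y axis) against that within replicates 1 and 2 (x axis, mean CPM) for the 34 members tested; filled points passed, and the dashed line marks equal differences. Mest (-2.59 and -0.99) and H19 (0.93 and 0.09) lie far from the line, and Plagl1 lies close to it.

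Of 45 further imprinted genes looked up by name, 31 were listed and 27 tested. In TCKO 3 were higher, 2 were lower and 22 did not pass, a share close to the 18.3% of all genes that passed, and their median log2 fold change was -0.20. Tfpi2, a protease inhibitor imprinted in placenta, was at 1.73, 2.18 and 2.64 CPM in WT and at 13.2, 16.3 and 11.5 CPM in TCKO. Every TCKO library was several-fold above every WT library (2.64 ± 0.22, edgeR adjusted p = 0.000299), and the call held without each library. Peg13 (-0.62 ± 0.12, edgeR adjusted p = 0.0113), Ago2 (0.56 ± 0.13, edgeR adjusted p = 0.0193), Htr2a (0.95 ± 0.23, edgeR adjusted p = 0.0265) and Atp10a (-0.79 ± 0.19, edgeR adjusted p = 0.0276) each lost the call without 3 of the 6 libraries. Those libraries were WT replicates 1 and 2 and TCKO replicate 1 for Peg13, Htr2a and Atp10a, and WT replicate 1 and TCKO replicates 1 and 2 for Ago2, with adjusted p up to 0.113.

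Of 20 genes of imprint maintenance and DNA methylation 18 were tested, of which 6 were higher (9.44% of all genes), 1 was lower (8.9% of all genes) and 11 did not pass. The 1 lower gene was Tet1 and 1 of those higher was Tet3, both targeted in TCKO mice. Uhrf1, which brings DNMT1 to newly copied DNA, was at 25.8, 29.4 and 27.6 CPM in WT and at 49.3, 44.2 and 44.3 CPM in TCKO (0.73 ± 0.092, edgeR adjusted p = 0.00149). Hells, a chromatin remodeller needed for DNA methylation, was higher by 0.86 ± 0.15 (edgeR adjusted p = 0.0079) and Trim28, the co-repressor of ZFP57, by 0.37 ± 0.074 (edgeR adjusted p = 0.0112) on the log2 scale. The call of Trim28 was lost without WT or TCKO replicate 2 (up to 0.0624). Dnmt1 (0.43 ± 0.11, edgeR adjusted p = 0.0253) and Smchd1 (0.30 ± 0.076, edgeR adjusted p = 0.0304) were higher too. Both lost the call without replicate 1 or 2 of either genotype (up to 0.113). Zfp57 itself was at 22.0, 17.3 and 25.6 CPM in WT and 25.5, 23.2 and 45.1 CPM in TCKO and overlapped (0.54 ± 0.28, edgeR adjusted p = 0.234).

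The targeted genes did not all fall in total count. Tet1 was at 8.86, 9.30 and 11.0 CPM in WT and at 6.53, 4.67 and 3.99 CPM in TCKO (-0.94 ± 0.22, edgeR adjusted p = 0.0207, lost without WT replicates 1 or 2 or TCKO replicate 2, up to 0.0799). Tet2 did not pass (-0.29 ± 0.16, edgeR adjusted p = 0.244), and Tet3 was higher in TCKO (0.48 ± 0.087, edgeR adjusted p = 0.00803). Counts per gene include exons outside a floxed segment, so they do not check the deletion. In the paper, knockout efficiency was checked by RT-qPCR in bones of the skull and femur and in liver, which was not examined here.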

How the data were processed

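The authors deposited raw read counts per gene symbol for the 6 libraries, from reads aligned to GRCm38. HISAT2 is the aligner in the submitters' processing notes and STAR in the published methods. No source used here gives the counting program, its strand setting or its treatment of shared exons. The deposited table lists genes with at least 10 reads in total, and its columns of authors' means, fold change, p-value and FDR were not used. No per-sample column was left out (0).

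Library totals were 8119261 to 10657824 reads, and precision falls for members with few reads. The main test was edgeR 4.0.16 in R 4.3.3 on all 6 libraries (TMM scaling, filterByExpr, robust quasi-likelihood F test, genotype only, Benjamini-Hochberg over 13630 genes, adjusted p under 0.05 at any fold). A gene past the threshold is called higher or lower in TCKO. CPM used TMM-scaled totals, and within-replicate differences were log2 of CPM plus 0.1. Values after ± are SE. Gene positions, exon lengths and exon overlaps came from GENCODE M21 on GRCm38 (15732 of 16455 symbols matched), and promoter and miRNA sequences from RefSeq GRCm38.p6.

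The members, marker lists and other gene lists were chosen with earlier results of these data known. Every member was accounted for. Members that passed, or had the highest mean CPM of their cluster, were given by library, and other members mostly by mean; from other lists up to 4 genes with the smallest adjusted p were named, plus genes that complete a cluster. Atp10a, Dnmt1, Smchd1, marker genes and genes within 500 kb of a cluster were named after their values were seen. Of the marker lists, endothelial had 2 higher (Kdr and Esam) and 1 lower (Erg) of 3 tested. Skeletal muscle had 1 higher of 4, and neuron and glia 1 higher of 4 (9.44% of all genes higher, 8.9% lower).

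Replicate numbers were taken as pairs because, across genes, deviations from the genotype mean correlated between same-numbered libraries (0.19, 0.20 and 0.33 for numbers 1, 2 and 3). WT replicate 2 with TCKO replicate 1 (0.25) and WT replicate 1 with TCKO replicate 2 (0.18) correlated about as much, so the values set replicate 3 apart and do not tell numbers 1 and 2 from each other. Alternatives were RLE scaling, no filter, a mean of at least 1 CPM, DESeq2 1.42.0, limma-voom (limma 3.58.1), a replicate block, leaving out each library, summing replicates 1 and 2, and, chosen after the data were seen, leaving out replicate 3 of both genotypes.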

Additional observations from a re-analysis of the deposited data

How the results depend on the processing

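Of the 13 imprinted genes that passed, Gpr1, Nnat, Zdbf2, Plagl1 and Zim1 passed in all 14 alternatives, and these 5 with Dio3 and Sgce passed without each single library. No called value changed sign, and 29 of the 34 kept their sign throughout, the exceptions being Blcap, Impact, Kcnq1ot1, Meg3 and Slc38a4, none of which passed with all 6 libraries. Leaving out 1 library gave 1190 to 3313 genes that differed (2500 with all), 3 to 5 members higher and 4 to 14 lower. With replicates 1 and 2 of each genotype summed, 353 genes differed and 3 members were higher and 2 lower. Without replicate 3 of both genotypes, a setting chosen after the data were seen that rests on near-alike libraries, 6371 genes differed, with 7 members higher and 19 lower. The members' median log2 fold change was -0.13 with no filter on low counts and also -0.13 (-0.128) in DESeq2, where Asb4 and Usp29 entered. With the replicate block 3352 genes differed, with 6 members higher and 10 lower. The block ended the calls of H19 and Mest, added Dlk1, Peg10, Peg3, Rian and Commd1, and changed no other member's call. None of the members it added passed with replicates 1 and 2 summed (edgeR adjusted p 0.244 to 0.417). Rian also passed with no filter (0.0477, edgeR) and in DESeq2 (adjusted p = 0.0176). Depth limits Asb4, Usp29, Gpr1, Nnat, Slc22a18, Dio3 and Dio3os, which had under 10 reads in some libraries.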
